A study of Mus musculus with 6 samples.

Results

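The miR-29 family was followed in small RNA libraries of mouse extracellular vesicles (EVs), 3 from colon explants and 3 from bone marrow–derived dendritic cells (BMDCs). Its rows were taken by name from the deposited count table, and the 5 rows were mmu-miR-29a-3p, mmu-miR-29b-3p, mmu-miR-29c-3p, mmu-miR-29a-5p and mmu-miR-29c-5p, of 1966 mature miRNAs in the table. Colon explants were cultured for 16 hours before EVs were collected by differential centrifugation and an iodixanol density gradient, of which fraction 2 was sequenced. The study describes colon explant EVs as highly heterogeneous, with epithelial and hematopoietic cells among their sources. BMDCs were grown from marrow with GM-CSF for 7 days. The labels and the study's methods give the gradient to colon EVs alone, whereas its results text also names it for BMDC EVs. The methods name exosome-depleted serum for the explant culture and do not state it for the BMDC culture. All 6 libraries carry the strain label Rab27A fl/fl, a floxed allele of a gene for vesicle release. The labels name no Cre driver and give no age, and do not say whether replicates came from separate animals or cultures, so p values measure the spread between these preparations alone. The comparison was made in the study to ask which miRNAs are common to EVs of dendritic cells and of whole colon tissue.

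miRNAs guide Argonaute proteins to mRNAs, and bases 2 to 8 of the mature strand, the seed, carry most of the target recognition. A hairpin precursor is cut into a 5p and a 3p arm, of which usually only 1 is kept at high level. The miR-29 3p arms are known for repressing mRNAs of the extracellular matrix, among them fibrillar collagens, elastin and fibrillin, and fall in many fibrotic tissues. They also repress DNA methyltransferases and, in T cells, regulators of interferon-γ, and in dendritic cells they have been described as a brake on IL-23.

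The mature sequences show why the family is read as a unit and where its members can be told apart. They are given 5′ to 3′ with the seed in capitals, from RefSeq on GRCm38.p6, and all 5 rows were found there by name.
miR-29a-3p: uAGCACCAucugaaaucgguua
miR-29b-3p: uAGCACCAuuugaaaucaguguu
miR-29c-3p: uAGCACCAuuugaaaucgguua
miR-29a-5p: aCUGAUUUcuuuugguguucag
miR-29c-5p: uGACCGAUuucuccugguguuc

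The 3p arms of miR-29a, miR-29b and miR-29c share 1 seed, AGCACCA, and no other row of the table with a known sequence has it. The 5p arms have seeds of their own, CUGAUUU and GACCGAU, which no other row with a known sequence shares. Counted from 1 at the 5′ end, with the base of the first-named miRNA written first, miR-29a-3p and miR-29c-3p differ by the single substitution C10U over 22 bases. miR-29b-3p and miR-29c-3p are the same for their first 17 bases and part at A18G, so that a read of 17 bases or fewer could have come from either. The 3′ end of miR-29b-3p holds the hexamer AGUGUU, known from human miR-29b as a signal for import into the nucleus. Read on the strand of the mature miRNA alone, AGUGUU was present in 2.05% of the 195 tested miRNAs with a known sequence and in 0.657% of all 1675 rows with one, and in no other miR-29 row listed above.

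The family is encoded at 2 loci. Mir29a occupies bases 31062660 to 31062747 of chromosome 6 (GRCm38, minus strand), outside annotated GENCODE vM21 genes, and Mir29b-1 lies 275 bases away, from 31063023 to 31063093, where its end overlaps the lincRNA Gm27019 by 2 bases. Mir29b-2 occupies bases 195037040 to 195037120 of chromosome 1 (plus strand), and Mir29c starts 426 bases further on, from 195037547 to 195037634. Both of these sit inside an exon of the noncoding gene A330023F24Rik and, on the opposite strand, inside an exon of Cd46, a complement regulator. The mature miR-29b-3p is identical from Mir29b-1 and Mir29b-2, so its counts cannot be divided between the loci. The hairpins whose arms are compared below are printed 5′ to 3′, with the 5p arm and then the 3p arm in capitals.
Mir29a: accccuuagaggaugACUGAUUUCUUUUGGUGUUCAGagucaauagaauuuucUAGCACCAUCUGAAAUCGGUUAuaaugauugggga
Mir29c: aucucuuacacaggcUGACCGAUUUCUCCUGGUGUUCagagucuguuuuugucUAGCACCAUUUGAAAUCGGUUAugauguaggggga

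Library totals were between 173358 and 645303 counts in colon EVs and between 83997 and 178454 in BMDC EVs. Levels are given as normalized CPM, the deposited counts scaled to a library size corrected by TMM, and values stand in the order of replicates 1, 2 and 3. The mature miRNAs compared are 22 or 23 bases long, so their levels need no correction for length. Epithelial and hematopoietic marker miRNAs went with the labels. All 8 epithelial miRNAs, such as miR-192-5p and miR-200c-3p, were higher in colon EVs and held 22.4% to 29.8% of their counts against 0.374% to 0.791% in BMDC EVs. All 7 hematopoietic miRNAs, such as miR-142a-3p and miR-223-3p, were higher in BMDC EVs and held 30.7% to 32.3% of their counts against 0.514% to 1.19% in colon EVs.

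miR-29a-3p was the most abundant arm in every library. miR-29c-3p was 2.31-fold higher in colon EVs than in BMDC EVs, while miR-29a-3p and miR-29b-3p did not pass the test between the sources. The 5p arms were rare. Of the 5 rows, 4 reached 10 counts in at least 3 libraries and were tested, and miR-29a-5p did not. Of these 4 rows, 1 was called (edgeR quasi-likelihood, Benjamini–Hochberg-adjusted p under 0.05), where 76.8% of all 220 tested miRNAs were called, 36.4% as higher in colon EVs and 40.5% as higher in BMDC EVs. Likewise, the libraries of the sources did not overlap for 1 of the 4 rows, against 81.8% of all tested miRNAs.

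**Figure D1:**
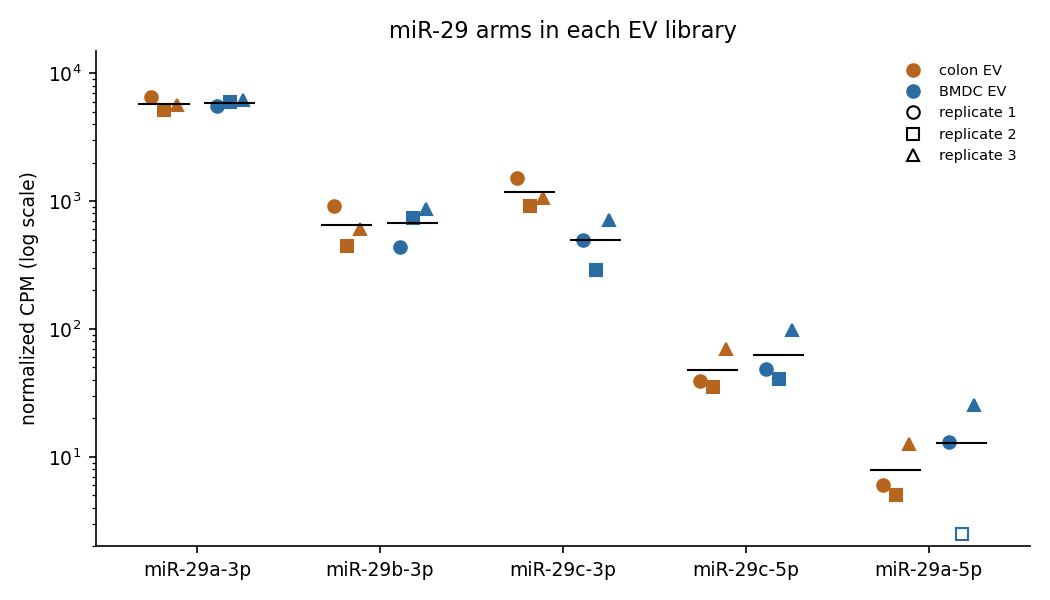
Normalized CPM on a log scale of the 5 miR-29 arms, with a point for each library (shape for the replicate, color for the source) and a line at the mean of each source (n = 3). The miR-29c-3p points of the colon EV libraries, from 918 to 1526, all lie above those of the BMDC EV libraries, from 287 to 717; the open square is a library with 0 counts of miR-29a-5p, drawn at the lower edge.

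miR-29a-3p was deposited at 3265, 1025.41 and 896.5 counts for colon EVs, and at 845.12, 591.62 and 1215.3 counts for BMDC EVs. Normalized, these were 6518, 5121 and 5658 CPM in colon EVs and 5500, 5955 and 6150 CPM in BMDC EVs. The libraries of the sources overlapped, with the lowest and the highest value both in colon EVs. The colon EV mean of 5766 ± 705 CPM (SD, n = 3) and the BMDC EV mean of 5868 ± 333 CPM (SD, n = 3) put miR-29a-3p at number 33 and number 25 in abundance, respectively, among tested miRNAs. The log2 fold change of BMDC EVs over colon EVs was 0.025 (standard error 0.204, 95% interval −0.40 to 0.45) and did not pass the test (edgeR, adjusted p = 0.924). Scaled by library totals alone, the log2 fold change was 0.49 and passed (edgeR, adjusted p = 0.0244), and it turned to −0.098 with DESeq2's size factors in edgeR, so no direction is given for miR-29a-3p.

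miR-29b-3p, the arm that both loci encode, had 459.2, 88.62 and 95.5 deposited counts for colon EVs, and 66.95, 72.83 and 170.67 for BMDC EVs. The normalized values of 917, 443 and 603 CPM in colon EVs lay across the 436, 733 and 864 CPM of BMDC EVs. Their means were 654 ± 241 CPM (SD, n = 3) and 677 ± 219 CPM (SD, n = 3), respectively. The log2 fold change was 0.037 (standard error 0.330, 95% interval −0.66 to 0.73) and did not pass the test (edgeR, adjusted p = 0.924). Replicates of the same source spread more widely for miR-29b-3p than for miR-29a-3p, and the interval leaves room for a change of either sign, which also turned with DESeq2's size factors (−0.084).

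miR-29c-3p, which differs from miR-29a-3p by 1 base, had 764.53, 183.83 and 168.5 deposited counts for colon EVs, and 76.5, 28.5 and 141.67 for BMDC EVs. Normalized, it had 1526, 918 and 1063 CPM in colon EVs and 498, 287 and 717 CPM in BMDC EVs. Every colon EV library was above every BMDC EV library, with the nearest values at 918 and 717 CPM. The colon EV mean was 1169 ± 318 CPM (SD, n = 3) and the BMDC EV mean 501 ± 215 CPM (SD, n = 3). The log2 fold change was −1.21 (standard error 0.323, 95% interval −1.89 to −0.53; edgeR, adjusted p = 0.00228). In abundance miR-29c-3p was number 64 among tested miRNAs in colon EVs and number 88 in BMDC EVs. It stayed past the adjusted p in all 16 other settings, with log2 fold changes from −1.75 to −0.74.

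The median log2 fold change of all tested miRNAs moved with the scaling, from 0.058 to 0.64 over 5 settings (TMM, upper quartile, library totals, and DESeq2's size factors within DESeq2 or edgeR). Relative to that median, miR-29a-3p lay between −0.16 and −0.15, miR-29b-3p between −0.15 and −0.11, and miR-29c-3p between −1.41 and −1.35 in these settings. A change of scaling moves all fold changes by nearly the same amount, so these settings could hardly move an arm relative to the median. The turns of sign of miR-29a-3p and miR-29b-3p under these scalings appeared in the fold changes before the median was subtracted. With edgeR's own filter, which changes the set of miRNAs, the relative values were −0.43 for miR-29a-3p, −0.45 for miR-29b-3p and −1.69 for miR-29c-3p.

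**Figure D2:**
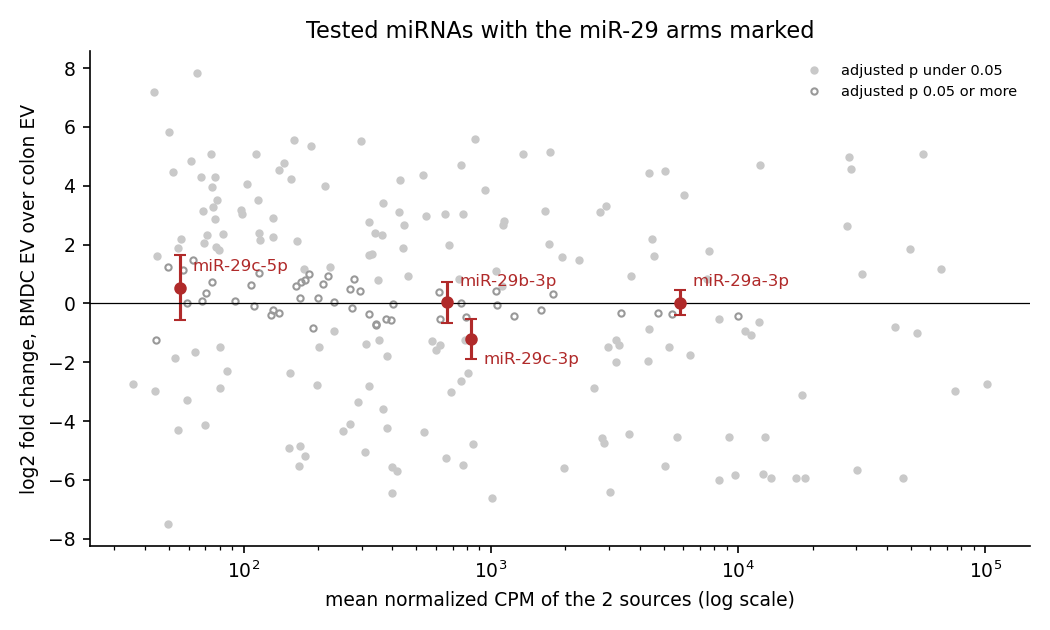
Log2 fold change of BMDC EVs over colon EVs against the mean normalized CPM of the sources (log scale) for the 220 tested miRNAs, with filled gray points past the adjusted p of 0.05 and open points not past it. The 4 tested miR-29 arms are in red with 95% intervals, and the interval of miR-29c-3p alone, from −1.89 to −0.53, stays off 0.

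The share of each 3p arm within the family was then compared. Of the summed counts of the 3p arms, miR-29c-3p made up 17.0%, 14.2% and 14.5% for colon EVs but 7.74%, 4.11% and 9.27% for BMDC EVs. miR-29a-3p made up 72.7%, 79.0% and 77.3% in colon EVs and 85.5%, 85.4% and 79.6% in BMDC EVs, and miR-29b-3p 8.43% ± 1.71 (SD, n = 3) and 9.48% ± 2.37 (SD, n = 3). The shares of miR-29c-3p did not overlap between the sources, those of miR-29a-3p did not overlap by a narrow margin (79.0% and 79.6% at the nearest), and those of miR-29b-3p overlapped. Shares within a library are tied by their sum, so a lower share of miR-29c-3p raises those of the other arms. The margin of miR-29a-3p is therefore not a separate result. Against miR-29b-3p, miR-29c-3p was the more abundant in all 3 colon EV libraries, with ratios of 1.66, 2.07 and 1.76, and in BMDC EVs the ratios were 1.14, 0.391 and 0.830. Order within the family thus followed a, c, b in colon EVs, while in BMDC EVs the places of b and c were not separated beyond the spread of the libraries. No correction was made for ligation or amplification preferences of the kit, which can differ between sequences.

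**Figure D3:**
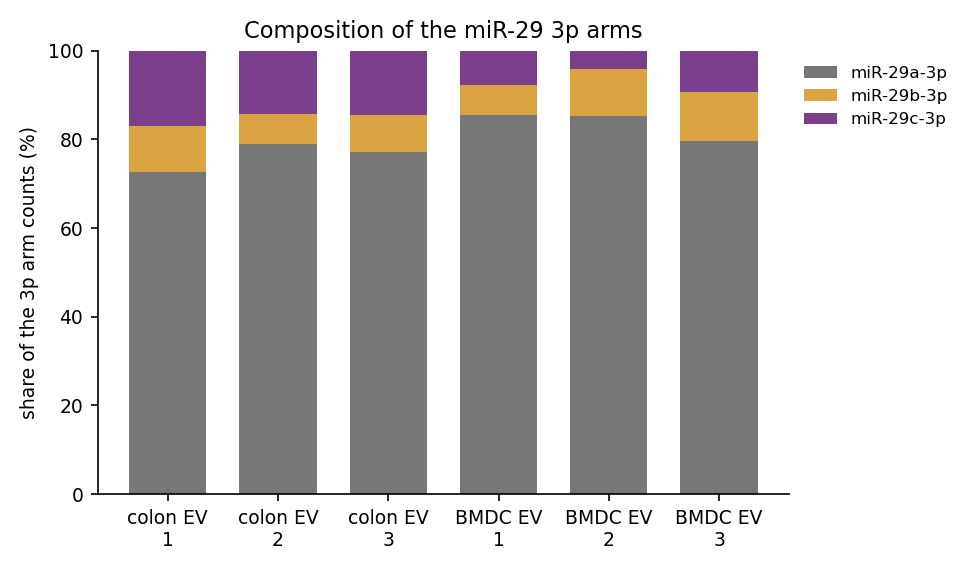
Share of miR-29a-3p, miR-29b-3p and miR-29c-3p in the summed counts of the 3p arms of each library (%). The upper segment, miR-29c-3p, spans 14.2% to 17.0% in the colon EV libraries and 4.11% to 9.27% in the BMDC EV libraries.

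Whether members of a seed family change by unequal amounts was tested in 1 fit over all families with at least 2 tested members, 23 families with 63 miRNAs. In it, the log2 fold change of each miRNA is set against that of its whole family, the miRNA itself included. The miR-29 family passed (edgeR differential usage, family-level adjusted p = 0.0123), as did 47.8% of the families. Within it, miR-29c-3p was lower in BMDC EVs relative to the family by −1.10 on the log2 scale (standard error 0.316, adjusted p = 0.00669), where 31.7% of single miRNAs passed. miR-29a-3p had a relative value of 0.13 on that scale (standard error 0.259, adjusted p = 0.786) and miR-29b-3p of 0.14 (standard error 0.326, adjusted p = 0.833). Because miR-29a-3p holds most of the family's counts, its value is largely a comparison with itself. It does not show whether miR-29a-3p moved relative to the other arms. The relative change of miR-29c-3p stayed past the adjusted p in all 10 other settings of filter, rounding, block and left-out library, between −1.39 and −0.85.

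The values of miR-29b-3p and miR-29c-3p held fractions of a count in all 6 libraries, and those of miR-29a-3p in 5 of the 6, as arises when reads with several matches are divided. Because miR-29b-3p and miR-29c-3p share their first 17 bases, their counts were also summed, a step chosen after the data were seen. The sums were 1223.73, 272.45 and 264 counts for colon EVs, and 143.45, 101.33 and 312.34 for BMDC EVs. The summed counts changed by −0.63 on the log2 scale (standard error 0.273; edgeR, adjusted p = 0.0417). In the family test, their change relative to the whole family, the summed counts included, was −0.53 and did not pass (edgeR differential usage, adjusted p = 0.150). The share of reads too short to be assigned was not tested, since read lengths are not among the values used here. miR-29a-3p shares only its first 9 bases with the other 3p arms, and the source of its fractions was not tested.

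The 5p arms are released from the same hairpins but are usually degraded. For miR-29a-5p the counts were 3, 1 and 2 with colon EVs but 2, 0 and 5 with BMDC EVs. These lay at or under a floor of 3 counts in 5 of the 6 libraries, and no fold change is given. It made up 0.0918% (95% Clopper-Pearson interval 0.0189 to 0.268) of the counts of both Mir29a arms in colon EV replicate 1, the deepest library, and 0.410% (0.133 to 0.954) in BMDC EV replicate 3. In BMDC EV replicate 2 it had 0 of 592 counts, which allows a share of up to 0.507% by the floor of 3 counts and 0.621% by the upper Clopper-Pearson bound. These intervals and floors cover counting error only. A difference between the sources in miR-29a-5p was not tested.

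For miR-29c-5p the counts were 19.5, 7 and 11 with colon EVs, and 7.5, 4 and 19.5 with BMDC EVs. Its normalized level was 38.9, 34.96 and 69.4 CPM in colon EVs and 48.8, 40.3 and 98.7 CPM in BMDC EVs, and the sources overlapped. The log2 fold change of 0.54 (standard error 0.530, 95% interval −0.57 to 1.66) did not pass the test (edgeR, adjusted p = 0.346). The interval holds changes of either sign, and without BMDC EV replicate 3 the value was −0.0095.

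As a share of the rounded counts of both Mir29c arms, miR-29c-5p was at 2.55%, 3.66% and 6.15% for colon EVs, and at 9.52%, 12.5% and 12.3% for BMDC EVs. The means were 4.12% ± 1.84 (SD, n = 3) and 11.5% ± 1.68 (SD, n = 3), and the shares did not overlap. These rest on few reads: in BMDC EV replicate 2 the share came from 4 of 32 counts, with a 95% Clopper-Pearson interval of 3.51% to 28.99%. In a fit over the 38 miRNA names with both arms tested, the log2 fold change of the 5p arm exceeded that of the 3p arm by 1.75 (edgeR differential usage, adjusted p = 0.0479), and 18.4% of the names passed. The difference is made of 0.54 for miR-29c-5p, which did not pass, and −1.21 for miR-29c-3p. It is therefore not a separate result from the change of miR-29c-3p. The arm usage call sits at the threshold. It was lost in 8 of 10 alternatives, among them leaving out any colon EV library or BMDC EV replicate 2 or 3 (adjusted p = 0.0511 to 0.257), while the difference kept its sign and lay between 1.35 and 2.10.

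**Figure D4:**
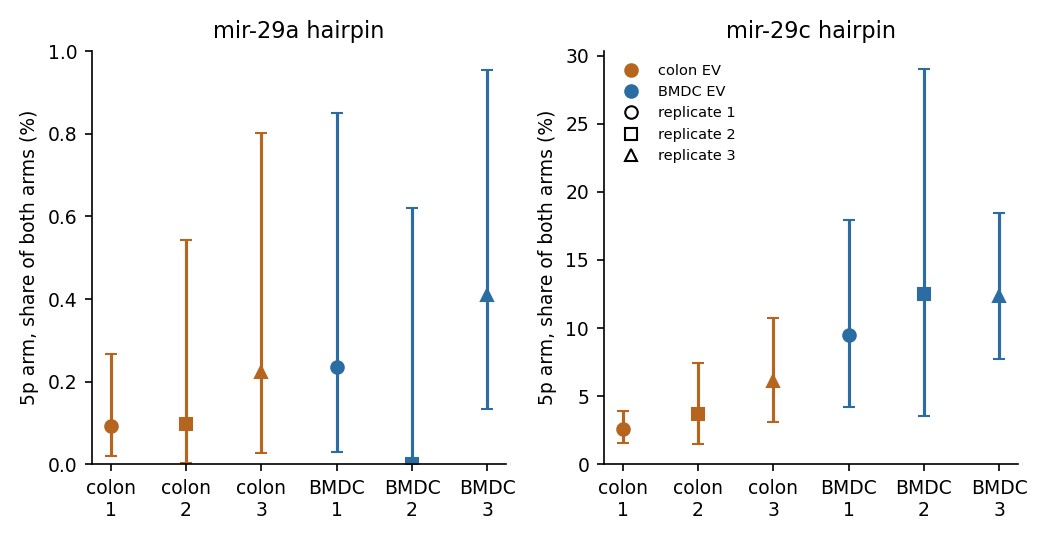
Share of the 5p arm in the rounded counts of both arms (%) for the Mir29a and Mir29c hairpins in each library, with exact 95% binomial intervals; the vertical scales differ. The mir-29c shares run from 2.55% to 6.15% in colon EVs and from 9.52% to 12.5% in BMDC EVs, with wide intervals, and the mir-29a shares stay at or below 0.410%.

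Summed over the 5 rows, the family held 0.699%, 0.561% and 0.677% of all colon EV counts, and 0.787%, 0.830% and 0.870% of all BMDC EV counts. As a share of library counts the BMDC EV libraries were thus all higher, with means of 0.829% ± 0.0413 (SD, n = 3) against 0.646% ± 0.0740 (SD, n = 3). On the TMM scale the colon EV sum was 7645 ± 1259 CPM (SD, n = 3) and the BMDC EV sum 7122 ± 685 CPM (SD, n = 3), which overlapped and had the opposite order. The direction of the summed family therefore rests on the scaling, and no test was made of a sum over chosen rows. Within the 5 rows, miR-29a-5p and miR-29c-5p together held 0.740% ± 0.324 (SD, n = 3) of the colon EV counts and 1.03% ± 0.507 (SD, n = 3) of the BMDC EV counts. The 5p arms of the miR-29b hairpins are not among these rows and are left out of the shares.

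**Figure D5:**
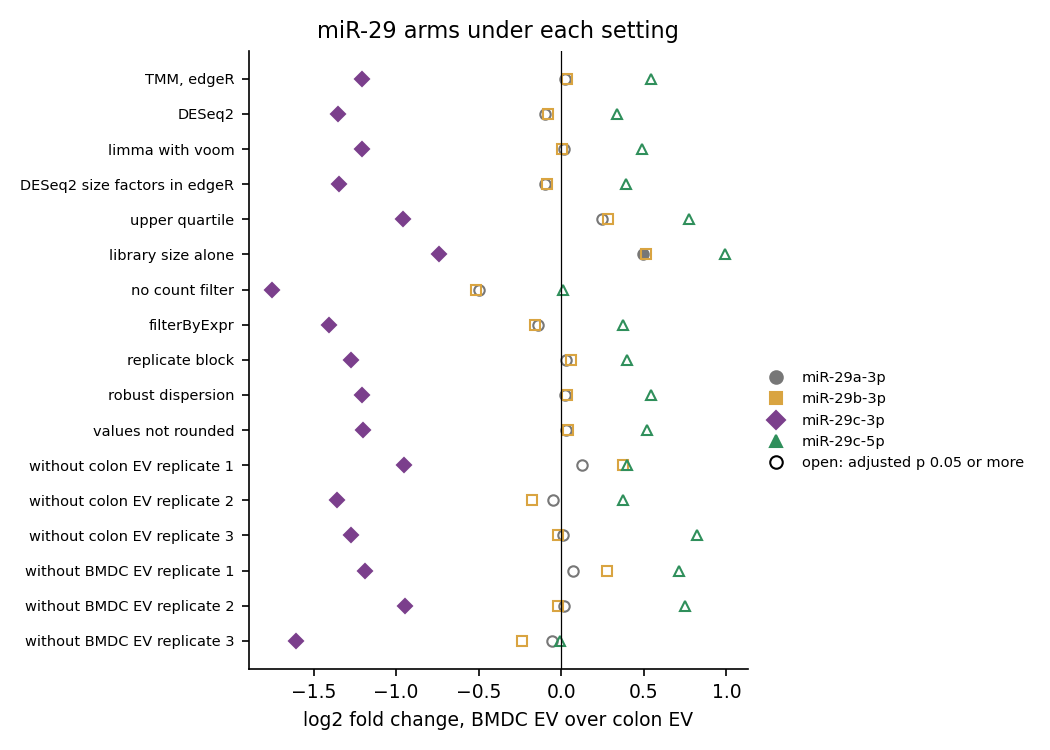
Log2 fold change of BMDC EVs over colon EVs of the 4 tested miR-29 arms (horizontal axis) under each setting (vertical axis), with filled symbols where the adjusted p was under 0.05. miR-29c-3p lies between −1.75 and −0.74 and is filled throughout; miR-29a-3p lies between −0.50 and 0.49 and is filled with library totals alone.

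Other miRNAs with described roles in matrix and fibrosis were taken from a list. That list was chosen with earlier results of these data known, so its counts by direction are a description alone. Of 20 listed miRNAs, 14 were tested, of which 9 were higher in colon EVs, 2 were higher in BMDC EVs and 3 did not pass, with a median log2 value of −0.90 against 0.19 for all tested miRNAs. Of all tested miRNAs, 36.4% were higher in colon EVs and 40.5% higher in BMDC EVs, and 76.8% were called in either direction. Among those higher in colon EVs, miR-30a-5p, described as a repressor of epithelial-mesenchymal transition, fell by 4.58 from colon EVs to BMDC EVs on the log2 scale (standard error 0.294; edgeR, adjusted p = 9.71e-11) and miR-26a-5p, described as antifibrotic, by 1.76 (standard error 0.227, adjusted p = 1.22e-06). miR-21a-5p, a profibrotic miRNA, had a value of −0.54 (standard error 0.230, adjusted p = 0.0394). The 2 that were higher in BMDC EVs were miR-155-5p, an inflammatory regulator, with 5.07 (standard error 0.340; edgeR, adjusted p = 1.78e-10), and miR-34a-5p, a p53 target, with 3.10 (standard error 0.233, adjusted p = 9.08e-10). The lists overlap: miR-155-5p was also counted with the hematopoietic miRNAs, and miR-192-5p and miR-200b-3p, which are 2 of the 9 higher in colon EVs, with the epithelial ones. The untested miR-133a-3p, miR-145a-5p, miR-199a-5p and miR-214-3p stand in the muscle and mesenchyme list as well.

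Markers of other cell types also differed between the sources, where 76.8% of all tested miRNAs were called. In the muscle and mesenchyme list, 2 of 7 miRNAs were tested and both were higher in colon EVs, miR-143-3p with −4.76 on the log2 scale (standard error 0.374; edgeR, adjusted p = 1.49e-09) and miR-199a-3p with −2.35 (standard error 0.506; edgeR, adjusted p = 0.000374). The list held 0.135% to 0.208% of the counts of colon EV libraries and 0.00860% to 0.0250% of those of BMDC EV libraries. miR-145a-5p, miR-133a-3p, miR-199a-5p and miR-214-3p were at 0 in at least 1 library. Of 5 red cell, liver and vessel miRNAs, 2 were tested, and the list held 0.0713% to 0.0988% in colon EVs and 0.0990% to 0.151% in BMDC EVs. The red cell miR-451a, miR-144-3p and miR-486a-5p stayed under the count filter and were not tested. The endothelial miR-126a-3p was higher in colon EVs (−1.40, standard error 0.354, edgeR, adjusted p = 0.00144) and the liver miR-122-5p in BMDC EVs (2.32, standard error 0.358, edgeR, adjusted p = 1.03e-05). The part of the cell makeup of the explants, and of any difference in the gradient or in the serum of the cultures, in the level of miR-29c-3p was not tested. Fewer vesicles from a cell type and fewer copies in each of its vesicles cannot be told apart in these bulk libraries.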

How the data were processed

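Small RNA libraries were made with a Qiagen miRNA kit from 3 colon EV and 3 BMDC EV preparations, and groups and columns follow the sample labels (0 columns unmatched). The deposited values are estimated counts of mature miRNAs, not normalized by the authors and in part not whole. The submitters' processing notes name STAR 2.7.6a, featureCounts 1.6.3 and DESeq2 1.30.1 with GRCm38, without their settings. How reads with more than 1 match were divided and whether molecular identifiers were used is not given in the sources used here.

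Counts were rounded and tested in R 4.3.3 with edgeR 4.0.16 (quasi-likelihood, TMM, no block) on 220 miRNAs that had 10 or more counts in 3 or more libraries. Adjusted p values are Benjamini–Hochberg over all tests of a fit, called under 0.05, and the standard error is the size of the log2 fold change over the square root of F. Arm usage and family composition used edgeR's diffSpliceDGE. Families were built from seeds of the 195 tested miRNAs with a RefSeq sequence, so members among the other 25 were not used. Alternatives were DESeq2 1.42.0, limma 3.58.1 with voom, other scalings, filters, dispersion, no rounding, a replicate block and leaving out each library; summing miR-29b-3p with miR-29c-3p was added after the data were seen. Fits were also run on simulated data in which fewer miRNAs changed than were called here. No result rests on those runs, and they do not bear on the choice of scaling. All 5 family rows are named in the text, with the miR-29b 5p arms, the 3 nearest miRNAs of each tested row and a list of matrix and fibrosis miRNAs. The family and these lists were chosen with earlier results of these data known. Replicates of a source were checked as separate libraries, with a chi-square per degree of freedom of at least 6.25.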

Additional observations from a re-analysis of the deposited data

How the results depend on the processing

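miR-29c-3p kept its direction and its call in all 16 other settings. miR-29a-3p was not called in 15 of 16 and was called with library totals alone, at a log2 fold change of 0.49. Its sign turned to −0.098 with DESeq2 and with DESeq2's size factors, −0.14 with edgeR's own filter and −0.50 with no count filter. miR-29b-3p was called in 0 of 16 (edgeR, limma and DESeq2, adjusted p of at least 0.149), and its sign turned to −0.082, −0.084, −0.16 and −0.52 in the same 4 settings. With each library left out in turn, miR-29a-3p lay between −0.054 and 0.12, miR-29b-3p between −0.24 and 0.38 and miR-29c-5p between −0.0095 and 0.82. The excess of the 5p arm of Mir29c over its 3p arm was 1.75 with at least 5 counts in 3 libraries, 1.67 with the replicate block and 1.72 without rounding, none past the adjusted p, and 1.35 to 2.10 with a library left out. Relative to its seed family, miR-29b-3p lay between −0.012 and 0.35 with a library left out, and miR-29c-3p summed with miR-29b-3p at −0.53, no longer called. The summed family level moved to 7645 CPM in colon EVs and 7122 CPM in BMDC EVs with TMM-scaled library sizes. The causes were not tested. Libraries of the same replicate number did not deviate together (correlations of −0.14 to −0.060 over 3 pairs), so the numbers were not taken as pairs. With the replicate block miR-29c-3p had −1.28, and the arm usage of Mir29c was the only listed call that changed. Counts of called miRNAs lay between 83 and 117 in BMDC EVs and between 70 and 114 in colon EVs. Depth limits the 5p arms: 3 counts correspond to 4.65 to 35.7 CPM of the library total.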

Other observations

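The 5p arms of the miR-29b hairpins carry what the shared 3p arm cannot, the locus of origin. miR-29b-1-5p, from the Mir29a locus, was counted 14, 3 and 1 times with colon EVs but 2, 4 and 21 times with BMDC EVs, in the order of replicates 1, 2 and 3. miR-29b-2-5p, from the Mir29c locus, had 6, 0 and 0 in colon EVs and 2, 2 and 1 in BMDC EVs. Summed over libraries, miR-29b-1-5p had 18 counts in colon EVs and 27 in BMDC EVs, and miR-29b-2-5p had 6 and 5. Neither reached 10 counts in 3 libraries, so neither was tested, and 1 library of each source held most of the miR-29b-1-5p counts.

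Patterns were compared over the 6 libraries by the Euclidean distance of log2 CPM after each miRNA's own mean was subtracted, as a description without a test. Nearest to miR-29a-3p were miR-148b-3p, at 0.389, miR-98-5p, at 0.504, and miR-23a-3p, at 0.530. Nearest to miR-29b-3p were miR-27a-3p, at 0.614, miR-128-3p, at 0.702, and miR-29a-3p, at 0.772. Nearest to miR-29c-3p were miR-872-5p, at 0.743, miR-26b-5p, at 0.982, and miR-23b-3p, at 1.01, and the log2 fold changes of these between the sources were −1.48, −1.07 and −1.48. Nearest to miR-29c-5p were miR-128-3p, at 0.766, miR-15a-5p, at 0.767, and miR-27a-5p, at 0.989. No miR-29 arm was among the 3 nearest of miR-29c-3p or of miR-29c-5p.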
